A study of Mus musculus with 3 samples.

Results

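Oxidative phosphorylation genes were followed through the white cells of mouse blood. The genes were taken by symbol from the deposited gene list: those starting with mt-Nd, mt-Co, mt-Atp or mt-Cytb on the mitochondrial chromosome, and those starting with Nduf, Uqcr, Cox4 to Cox8 or Atp5 in the nucleus, pseudogenes left out. The rule found 102 of 31053 genes, of which 89 are nuclear and 13 are mitochondrially encoded. At least 1 unique molecular identifier (UMI, one captured RNA molecule) was counted for 97 of them, and 96 reached the 20 UMIs set as the minimum for a comparison, 83 nuclear and all 13 mitochondrially encoded.

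The series compared blood leukocytes of C57/BL6J mice that were controls (Con, 0 h) or had been deprived of sleep for 24 h (SD24h) or 48 h (SD48h). Each group was 1 library made from the pooled retro-orbital blood of 3 mice under pentobarbital anaesthesia, after red cell lysis, with about 7000 cells planned, on the 10x Genomics 3' platform, which reads the end of each transcript next to its poly(A) tail. The 3 libraries are held in 1 table, where barcodes end in 1, 2 or 3, and the labels do not say which ending is which group. The labels give no age or sex. No comparison between the groups was therefore made, no order in time is read from the endings, and there is no test: values are given for each ending, with exact 95% intervals that cover counting error only. The comparisons are between cell classes, repeated within each ending.

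Oxidative phosphorylation is carried out in the inner mitochondrial membrane. Complexes I, III and IV pass electrons to oxygen and pump protons, and complex V, the ATP synthase, uses the proton gradient to make ATP. Each of these complexes has at least 1 subunit encoded by mitochondrial DNA and the others by the nucleus, so that both genomes must be expressed to build them. Neutrophils are known for relying mainly on glycolysis and for holding few mitochondria, whereas resting lymphocytes and monocytes respire.

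The table held 22204 barcodes (8815, 6648 and 6741 for endings 1, 2 and 3), with a median of 3987, 3721.5 and 4405 UMIs. Of these, 976 barcodes had fewer than 200 genes, 962 of them with red cell markers, and 704 were left out as doublets. The other cells were clustered without the oxidative phosphorylation genes, and 19355 fell into 5 classes named from markers as neutrophil-, monocyte-, B-, T- and NK-like; 295 were red cell-like and 874 stayed unnamed. In their own class, all 18 neutrophil, 16 monocyte, 14 B, 16 T and 14 NK markers had at least 1 UMI. This is no separate support for the names, which were given from these lists. All 14 B markers, for example, also had a UMI in each of the other classes, red cell-like included. Between endings, 61 barcode sequences were shared. The neutrophil-like cells of ending 1 stood apart: 528 of 544 lay in 1 cluster (cluster 10), which held 3.08% and 3.02% of those of endings 2 and 3, where clusters 1 and 3 held most. Their whole list of 12 platelet markers, none at 0, summed to 9553 CPM (counts per 1000000 UMIs of the class and ending), against 2799 and 2555 in endings 2 and 3. This sum was highest in ending 1 in the other 4 leukocyte classes too. It was 3301 CPM there in monocyte-, 3608 in B-, 3373 in T- and 4371 in NK-like cells, against 1160 to 1889 CPM in endings 2 and 3. In the neutrophil-like cells of ending 1, S100a8 and S100a9 made up 12.5% of UMIs, against 26.3% and 31.0% in endings 2 and 3. The part of these differences in the values below was not tested.

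The nuclear and the mitochondrially encoded genes were highest in different cells. The summed nuclear genes were highest in monocyte-like cells, at 17672, 20523 and 22279 CPM in endings 1, 2 and 3, and in NK-like cells, at 19227, 19451 and 20542 CPM. T-like cells had 13804, 14879 and 15308 CPM and B-like cells 13370, 13579 and 13587 CPM. Neutrophil-like cells were lowest of the 5, with 10427, 6445 and 6991 CPM. NK-like cells were above monocyte-like cells in ending 1 and below them in endings 2 and 3. This order depends on the scaling. By TMM scaling, which matches the bulk of genes between libraries, monocyte-like cells were the highest in every ending, with 15148, 18445 and 20263 CPM, and NK-like cells, with 14305, 14011 and 15975 CPM, lay below T-like cells in ending 2 (14724 CPM). Neutrophil-like cells then had 11362, 12078 and 14890 CPM beside 12175, 12214 and 12516 CPM in the B-like class, so that they were not the lowest in ending 3. For the class with fewest cells, NK-like in ending 2 (83 cells), the interval of 19451 CPM was 18999 to 19910.

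Neutrophil-like cells were also lowest for the mitochondrially encoded genes, and B- and T-like cells were above NK- and monocyte-like cells. The 13 genes took 7.80%, 6.85% and 6.62% of all UMIs in B-like cells and 7.69%, 7.16% and 6.76% in T-like cells. NK-like cells had 4.79%, 4.53% and 4.26%, and monocyte-like cells 3.83%, 3.36% and 3.65%. Neutrophil-like cells had 1.56%, 0.59% and 0.93%. The order of B- and T-like cells differed between endings. By TMM scaling T-like cells were above B-like cells in every ending, and NK-like cells (33141 CPM) were not above monocyte-like cells (33226 CPM) in ending 3.

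**Figure D1:**
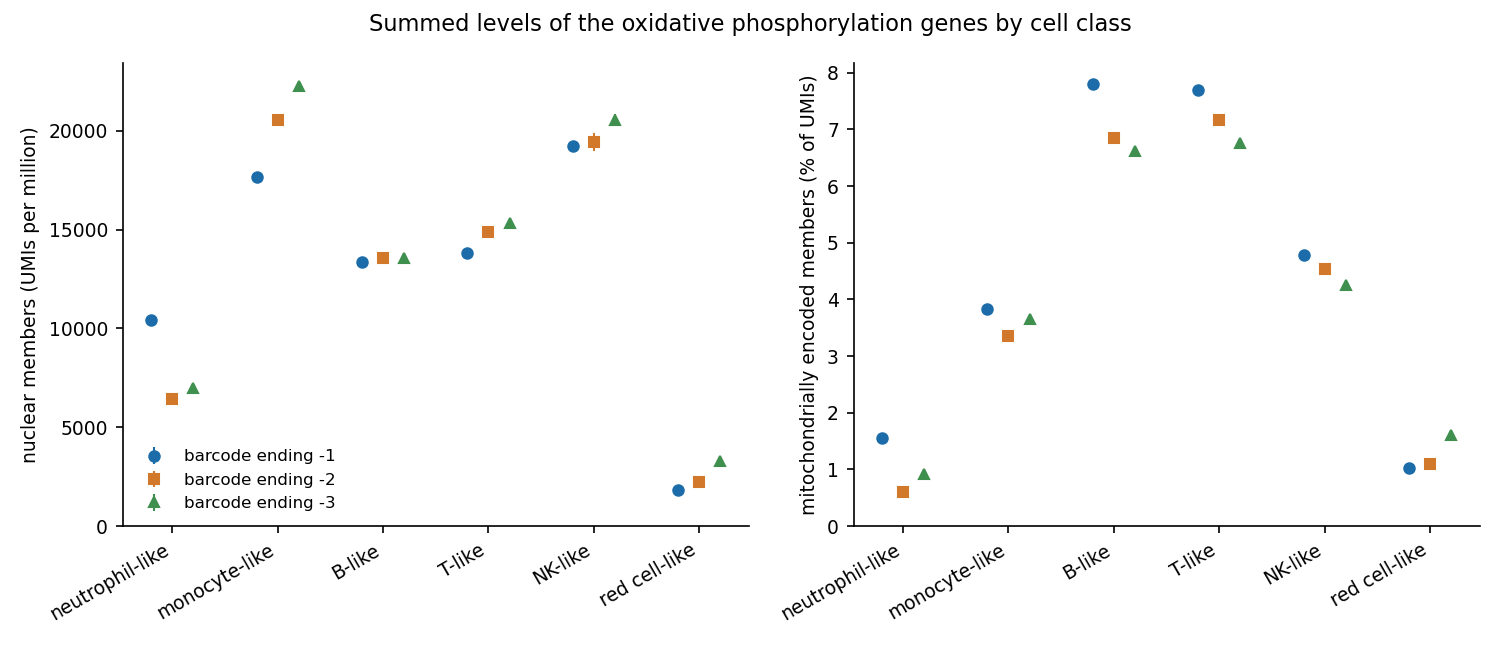
Summed level of the nuclear genes (left, CPM) and of the 13 mitochondrially encoded genes (right, % of UMIs) by cell class; each point is 1 barcode ending and the bars are exact 95% intervals, mostly smaller than the points. Monocyte- and NK-like cells are highest on the left (17672 to 22279 CPM) and B- and T-like cells on the right (6.62% to 7.80%); by TMM scaling, not drawn, NK-like cells were below T-like cells on the left in ending 2.

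The ratio of the 2 parts does not depend on how libraries are scaled. B-like cells held 5.83, 5.04 and 4.87 mitochondrially encoded UMIs for each nuclear one, and T-like cells 5.57, 4.81 and 4.41. NK-like cells held 2.49, 2.33 and 2.07 and monocyte-like cells 2.17, 1.64 and 1.64. Neutrophil-like cells held 1.497 (interval 1.467 to 1.527), 0.922 (0.913 to 0.932) and 1.32 (1.31 to 1.34), the lowest in each ending. Relative to B-like cells the neutrophil-like ratio was 0.257, 0.183 and 0.272, the monocyte-like 0.372, 0.325 and 0.337 and the NK-like 0.427, 0.462 and 0.426, with every interval below 1. Red cell-like barcodes, whose UMIs are mostly haemoglobin, had few nuclear UMIs (1843, 2215 and 3270 CPM) but a ratio of 5.58, 4.98 and 4.90, near that of B-like cells.

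A limit of 10% mitochondrial UMIs per barcode, often used to leave out damaged cells, touches the measured genes themselves and did so unequally. It left out 26.9%, 25.1% and 23.9% of T-like cells and 15.1%, 10.0% and 8.06% of B-like cells, but at most 3.28% of any other leukocyte class. Under it the T-like ratio was 4.16, 3.55 and 3.35 and the B-like ratio 5.17, 4.63 and 4.52, while that of monocyte-like cells was 2.11, 1.62 and 1.62. For the mitochondrially encoded level, T- against B-like cells then stood at 0.858, 0.868 and 0.862, with intervals below 1, against 0.986, 1.046 and 1.021 with all barcodes, where the direction differed between endings.

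**Figure D2:**
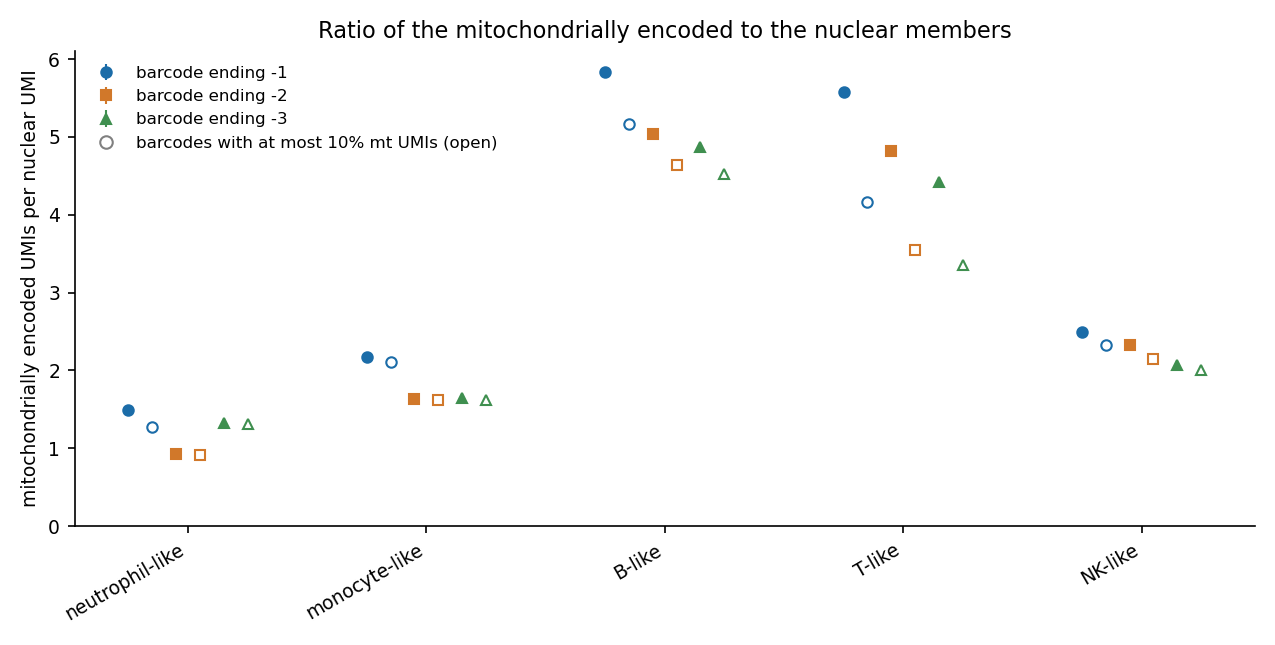
Mitochondrially encoded UMIs per nuclear oxidative phosphorylation UMI by class; each point is 1 barcode ending, filled for all barcodes and open for those with at most 10% mitochondrial UMIs, and bars are exact 95% intervals. Neutrophil-like cells are lowest (0.922 to 1.497) and the limit moves T-like cells most, from 5.57 to 4.16 in ending 1.

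Single genes were compared between classes by a fixed rule: a gene was called where the ratio of CPM was at least 1.5 in 1 direction in all 3 endings with each interval excluding 1. A leading class was called where 1 class was highest in all 3 endings and the interval of its ratio to the next class excluded 1 in each. A leading class was called for 11 of the 83 measured nuclear genes and for 5 of the 13 mitochondrially encoded ones, beside 20.8% of all 13408 measured genes. Monocyte-like cells led for 7 nuclear genes (background 5.76%), NK-like cells for 3 (3.40%), T-like cells for 1 (2.60%), and B- or neutrophil-like cells for none (3.54% and 5.49%). By TMM scaling the counts were 13 for monocyte-like cells (background 4.67%), 5 for neutrophil-like (12.6%), 4 for T-like (3.89%) and 0 for NK- and B-like cells (1.81% and 3.80%). Of the mitochondrially encoded genes, B-like cells led for mt-Co1, mt-Co2 and mt-Nd5 and T-like cells for mt-Nd2 and mt-Atp6. With at most 10% mitochondrial UMIs per barcode B-like cells led for 10 of the 13 and T-like cells for 0, and by TMM scaling B-like cells led for 1 and T-like cells for 9, so no order of these 2 classes is given for them.

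The class differences by complex start with complex I, which takes electrons from NADH. Its 3 genes with most UMIs were Ndufa13, Ndufa6 and Ndufa2, all accessory subunits. NK-like cells led for Ndufa13, with 427, 474 and 439 CPM, against 235, 248 and 229 CPM for B-like cells, and the ranges did not overlap. By TMM scaling NK-like cells led for no gene of the 83, and Ndufa13 was not called between NK- and B-like cells. Ndufb8, an accessory subunit of the membrane arm, was led by monocyte-like cells at 200.5, 260 and 312 CPM, against 114, 120 and 123 CPM in B-like and 79.6, 94.1 and 104 CPM in T-like cells. Ndufs8, which carries iron-sulphur clusters of the electron path, was the only one of 83 nuclear genes called between T- and B-like cells: it was lower in T-like cells, at 46.4, 52.6 and 57.5 CPM against 86.8, 81.8 and 95.8 CPM (background 12.7% called lower and 8.27% higher). By TMM scaling it was not called, and Cox7a2l, Ndufa10 and Ndufv3 were called higher in T-like cells (10.1% called in either direction).

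Complex III passes electrons on to cytochrome c. Uqcrh, a small hinge subunit, was close between the mononuclear classes, from 574 to 745 CPM over monocyte-, B-, T- and NK-like cells, and lower in neutrophil-like cells, at 297, 192 and 264 CPM. Uqcrq, a subunit that binds near cytochrome b, was led by monocyte-like cells at 265, 329 and 364 CPM, against 130, 134 and 129 CPM in B-like cells. In neutrophil-like cells Uqcrq stood at 161, 131 and 130 CPM, which overlapped the B-like range.

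Complex IV, cytochrome c oxidase, reduces oxygen. Cox4i1, its largest nuclear-encoded subunit, was led by monocyte-like cells at 879, 936 and 1184 CPM, against 511, 548 and 555 CPM in B-like cells. Cox8a, the smallest subunit, was led by NK-like cells at 996, 1048 and 1014 CPM, a lead that TMM scaling removed. Cox7a2l, which helps to join complexes III and IV into supercomplexes, was the 1 nuclear gene led by T-like cells, at 624, 699 and 740.5 CPM, against 439, 513 and 513 CPM in B-like cells. It was lower in NK-like cells, at 296, 405 and 380 CPM. For the summed nuclear genes NK-like cells were above B-like cells, at 1.44, 1.43 and 1.51 times. Ndufa4, first named for complex I and now counted as a complex IV subunit, stood at 610, 709 and 655 CPM in NK-like against 338, 304 and 315 CPM in B-like cells and was not called between them by TMM scaling.

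Against B-like cells, 17 nuclear genes were called higher in monocyte-like cells and 2 lower (background 18.5% and 15.1%), and 20 were called higher in NK-like cells and 0 lower (9.14% and 4.53%). The median log2 ratio of the 83 genes was 0.33, 0.61 and 0.70 for monocyte-like cells, beside -0.05, -0.06 and -0.03 over all measured genes, and 0.47, 0.38 and 0.58 for NK-like cells, beside 0.13, 0.04 and 0.04. The count of 17 is close to its background share. The summed nuclear genes were higher in monocyte-like than in B-like cells in each ending, at 1.32, 1.51 and 1.64 times. By the interval bound nearest 1, the genes furthest above B-like cells were Cox6b2, Uqcrq, Ndufaf7, Atp5c1, Cox4i1 and Ndufb8. Ndufaf7, a methyltransferase needed to assemble complex I, had 33.1, 27.7 and 39.4 CPM in monocyte-like cells against 10.6, 11.1 and 10.01 CPM in B-like ones. Atp5c1, the rotating gamma subunit of the ATP synthase, stood at 358, 360 and 444 CPM against 186, 204 and 209 CPM. Among the NK-like genes Atp5h, a stalk subunit of the synthase, stood at 714, 775 and 816 CPM against 337, 376 and 343 CPM. Cox7a2 stood at 413, 411 and 405 CPM against 232, 217 and 223 CPM, and Cox5b at 380, 444 and 443 CPM against 208, 220 and 222 CPM. With TMM scaling, which lowered NK-like values by 0.36 to 0.47 on the log2 scale, 1 of the 20 NK-like calls remained (Atp5h), and 12 of the 17 monocyte-like ones (background called higher 6.53% and 17.6%, lower 6.60% and 16.3%). The summed nuclear genes were still higher in both classes, 1.15 to 1.28 times in NK-like and 1.24 to 1.62 times in monocyte-like cells.

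In neutrophil-like against B-like cells 46 of the 83 nuclear genes were called lower and 0 higher (background 35.1% and 12.3% of 13408 genes), and all 13 mitochondrially encoded genes were called lower. The median log2 ratio of the nuclear genes, -0.86, -1.71 and -1.33, was close to that of all measured genes, -0.89, -1.31 and -1.47, whereas that of the mitochondrially encoded genes was -2.29, -3.65 and -3.10. By TMM scaling, which raised neutrophil-like values by 0.12, 0.91 and 1.09 on the log2 scale in endings 1, 2 and 3, the summed nuclear genes stood at 0.933, 0.989 and 1.190 of the B-like level, so no direction is given for their sum. Under that scaling 25 of the 46 genes were still called lower, 6 genes (Atp5l, Cox8a, Ndufa1, Ndufa3, Ndufa7 and Ndufb9) were called higher (background 25.4% and 20.4%), and 12 of the 13 mitochondrially encoded genes, mt-Co1 being the exception, were called lower. Against monocyte-like cells 55 nuclear and 12 mitochondrially encoded genes were called lower and 0 higher (background 32.4% and 7.11%); by TMM scaling 37 and 8 of these were called lower and 0 higher (20.4% and 15.6%). Without cluster 10 only 16 neutrophil-like cells are left in ending 1, which limits the calls for any gene. Then 19 nuclear genes were called lower than in B-like and 33 lower than in monocyte-like cells. No share over all measured genes is given for this setting, so the smaller counts are not read as a result about these genes.

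The genes of 1 complex did not move alike in neutrophil-like cells. Complex IV had 3 of 15 measured genes called lower, complex I 21 of 36 and complex III 5 of 8. Complex V had 10 of 16 and the Ndufaf assembly factors 7 of 8. The share over all measured genes was 35.1%, and these counts are not given by TMM scaling. The 15 include Cox6a2 and Cox7a1, with 57 and 37 UMIs in the 5 classes, too few for a call. Cox8a stood at 846, 637 and 513 CPM in neutrophil-like and 564, 550 and 530 CPM in B-like cells, which was 8.12%, 9.89% and 7.33% of all nuclear oxidative phosphorylation UMIs against 4.22%, 4.05% and 3.90%. Atp5l, a membrane subunit that joins ATP synthase dimers, stood at 669, 448 and 396 CPM against 394, 383 and 385 CPM. It made up 6.41%, 6.95% and 5.66% of the nuclear UMIs against 2.94%, 2.82% and 2.84%. The shares of these 2 genes did not overlap between the classes, and no scaling touches that measure.

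At the other end were the assembly factors and a few subunits. Ndufaf4, a factor that helps to build an early part of complex I, had 0.649, 0.259 and 0.451 CPM in neutrophil-like cells (1, 3 and 5 UMIs) against 35.0, 29.5 and 33.0 CPM for B-like ones. Its ratio was 0.019 (interval 0.000 to 0.104), 0.0088 (0.0018 to 0.026) and 0.014 (0.0044 to 0.032). Ndufaf2, another complex I assembly factor, stood at 0.649, 0.259 and 0.360 CPM against 15.6, 15.6 and 14.7 CPM. B cell transcripts were also found in the same cells. Cd79a in neutrophil-like cells was 1.25%, 0.180% and 0.323% of its B-like level, ratios of 0.0125, 0.0018 and 0.0032 that lie below those of Ndufaf4. Ighm was at 8.84%, 2.46% and 1.05% of its B-like level. The 14 B markers, none at 0, summed to 608, 133 and 106 CPM against 19408 to 19714 CPM in B-like cells. The part of such RNA from other cells in the few Ndufaf4 and Ndufaf2 UMIs was not tested. Ndufa5, an accessory subunit of the matrix arm of complex I, stood at 3.25, 0.864 and 4.51 CPM against 76.4, 73.6 and 66.8 CPM, and Ndufc2, of its membrane arm, at 5.84, 4.58 and 10.5 CPM against 85.1, 85.5 and 87.4 CPM. All 4 were called lower in neutrophil-like cells also by TMM scaling and with the limit of 10%.

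The ATP synthase c ring, which turns as protons pass, is built from a protein encoded by 3 genes. In neutrophil-like cells Atp5g1 stood at 20.8, 11.8 and 14.1 CPM, Atp5g2 at 64.9, 26.5 and 28.2 CPM and Atp5g3 at 21.4, 19.3 and 26.0 CPM. In B-like cells they stood at 135, 143 and 155 CPM, at 359, 375 and 411 CPM and at 114, 128 and 128 CPM. All 3 genes were called lower under both scalings. As a share of complex V UMIs, the 3 together made up 3.83%, 3.23% and 3.64% in neutrophil-like cells, with intervals between 2.995% and 4.44%, and 12.5% to 17.8% in every ending of the other 4 leukocyte classes. The proteins made from these genes differ only in the targeting peptide that is cut off on import, so the 3 are one subunit.

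**Figure D3:**
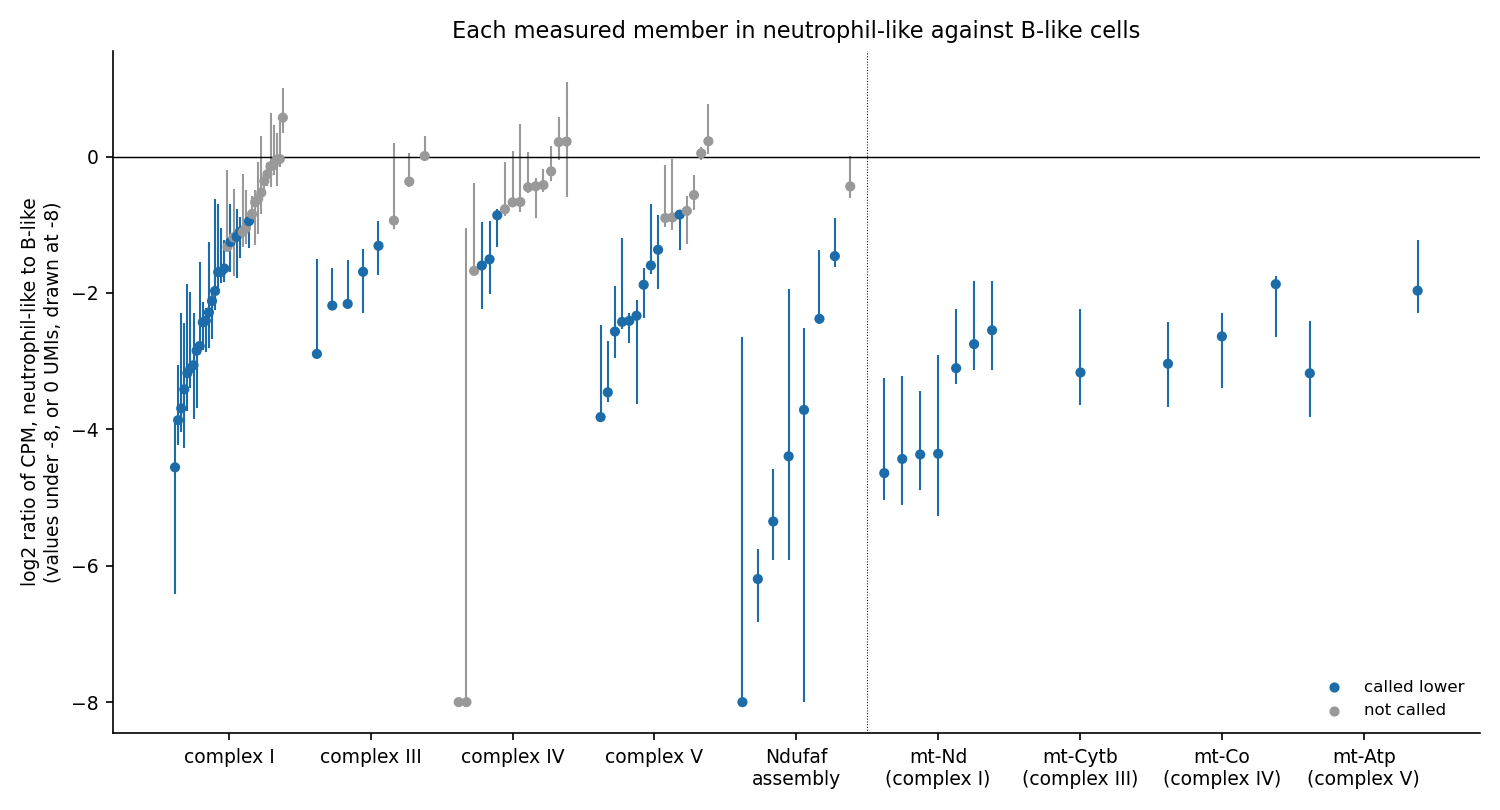
Each measured gene as the log2 ratio of CPM in neutrophil-like to B-like cells, grouped by complex; the point is the median of the 3 barcode endings, the line runs from the lowest to the highest, blue marks genes called lower and grey those not called. Complex IV has 3 of 15 genes in blue and the Ndufaf assembly factors 7 of 8, beside 35.1% of all measured genes called lower. With TMM scaling 25 of the 46 nuclear calls remained.

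The start sites of these genes were looked at for 3 motifs that are common at genes for mitochondrial proteins. Promoters from 250 bases before to 50 bases after the start were taken from RefSeq (build GRCm38.p6) and matched 73 of the 89 nuclear genes; no sequence of Atp5a1 is shown. The motif of nuclear respiratory factor 1 (GCGCA, any base, GCGC) lay in 23.3% of these 73 genes, against 11.4% of 10064 measured genes and 5.19% of all 27025 genes with a promoter in the table. The ETS motif (CCGGAAG) lay in 21.9%, against 20.1% and 9.93%, and the YY1 motif (AANATGGCG) in 15.1%, against 5.98% and 2.76%. Both strands were searched, and no motif holds another. The first motif lay in 11 of the 41 matched genes called lower in neutrophil-like cells and in 6 of the 30 measured but not called. The second lay in 6 and 10 of them, and the third in 6 and 5. A match is a string of letters and not a site shown to be bound. The stretches below were picked after the values were seen and do not stand for a split by motif. Ndufs3, with the ETS motif, was also lower in neutrophil-like cells, at 13.6, 5.70 and 4.87 CPM. Its B-like values were 67.0, 73.7 and 80.1 CPM. Ndufa8, with the first motif, was not lower throughout, at 61.7, 68.8 and 119 CPM against 74.1, 75.1 and 86.5 CPM. Shown are 4 genes that were far lower in neutrophil-like cells and 2 that were not. The motif on either strand is in capitals, read 5′ to 3′ along the gene.
Ndufaf4 (chr4:24897962-24897987, plus strand): agatgtctGCGCATGCGCctgtgcgg
Ndufa5 (chr6:24527699-24527724, minus strand): tgtgagctGCGCAGGCGCaaatctac
Atp5g2 (chr15:102671072-102671097, minus strand): ctccggccGCGCATGCGCagagcctt
Ndufa11 (chr17:56717694-56717719, plus strand): tgcactgcGCGCATGCGCgcacgcct
Cox6b1 (chr7:30626128-30626150, minus strand): tctcgcagCTTCCGGccagtcgg
Atp5l (chr9:44920940-44920962, minus strand): tcaccgatCTTCCGGaccaacat

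Ndufa11, a membrane-arm subunit of complex I, had 12.98, 7.60 and 23.6 CPM in neutrophil-like against 108, 109 and 116 CPM in B-like cells. Cox6b1, which lies where 2 complex IV molecules join, stood at 318, 231 and 220 CPM against 287, 269 and 282 CPM. Of the genes shown, the first 4 were called lower and the last 2 were not, Atp5l being called higher by TMM scaling; Atp5g1 and Ndufc2, lower to a similar extent, had none of the 3 motifs in this window.

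The 13 mitochondrially encoded genes lie on both strands of chromosome M: 12 are on the plus strand of the annotation and mt-Nd6 on the minus strand. Most are cut from long shared precursors, but 2 pairs stay joined in 1 RNA because their reading frames overlap. The overlaps are shown, from the GENCODE M21 transcripts on GRCm38, because a UMI counted there cannot be given to 1 gene; capitals mark the bases that both genes share, 43 for the first pair and 7 for the second.
mt-Atp8 and mt-Atp6 (chrM:7912-7984, plus strand): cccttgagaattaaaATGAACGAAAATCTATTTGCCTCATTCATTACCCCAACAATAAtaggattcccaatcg
mt-Nd4l and mt-Nd4 (chrM:10155-10185, plus strand): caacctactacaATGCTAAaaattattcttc

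The upstream gene of each pair had few counts in an assay that reads 3' ends. In B-like cells mt-Atp8 stood at 60.4, 38.5 and 44.4 CPM beside 15837, 14364 and 14129 CPM for mt-Atp6, and mt-Nd4l at 155, 108 and 109 CPM beside 4854, 4109 and 3849 CPM for mt-Nd4. Since each pair is 1 RNA, the values of mt-Atp8 and mt-Nd4l are not levels of separate RNAs. mt-Nd6 had 2212 UMIs in the 5 classes, the fewest of the 13.

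Within the mitochondrially encoded UMIs of neutrophil-like cells, mt-Co1 took a high share and mt-Nd1, mt-Nd2 and mt-Nd3 a low one. mt-Co1, the catalytic core of complex IV, made up 19.0%, 24.8% and 28.9% of the 13 genes' UMIs there, against 13.9%, 13.4% and 13.6% in B-like and 17.2%, 15.4% and 16.8% in monocyte-like cells. The other 2 complex IV genes differed less: mt-Co3 made up 18.9%, 18.7% and 17.7%, below the 20.3%, 20.6% and 20.3% of B-like cells, and mt-Co2 15.4%, 16.6% and 17.5%, above 15.1%, 15.2% and 15.2%. mt-Nd1, a core proton-pumping subunit of complex I, made up 2.87%, 1.88% and 1.88%, against 5.38%, 5.63% and 5.68% in B-like cells. mt-Nd2, another, made up 2.94%, 1.98% and 1.66% against 5.57%, 5.67% and 5.79%, and mt-Nd3 1.07%, 0.702% and 0.606% against 2.33%, 1.81% and 1.75%. For these 3 genes no interval of the neutrophil-like cells overlapped one of the B-like cells. mt-Nd4 and mt-Nd5 did not follow them: mt-Nd4 made up 8.75%, 7.87% and 6.18% against 6.22%, 6.002% and 5.81%. The 7 mt-Nd genes together made up 16.9%, 13.6% and 11.3% in neutrophil-like cells and 18.04% to 21.4% in every ending of the other 4 leukocyte classes, and the 3 mt-Co genes 53.3%, 60.1% and 64.1% against 46.8% to 53.8%.

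As levels, mt-Nd2 had 460, 118 and 154 CPM in neutrophil-like cells against 4343, 3879 and 3834 CPM for B-like ones, a ratio of 0.106, 0.030 and 0.040. mt-Co1 stood at 2969, 1477 and 2671 CPM against 10860, 9199 and 9001 CPM, a ratio of 0.273, 0.161 and 0.297. mt-Co3 stood at 2956, 1110 and 1640 CPM against 15831, 14078 and 13467 CPM, and mt-Cytb, the catalytic core of complex III, at 1638, 532 and 704 CPM against 7695, 6677 and 6276 CPM. Neutrophil- and B-like ranges were apart for each of these 4 genes. Against B-like cells, 10 of the 13 genes were called lower in monocyte-like cells and 5 in NK-like cells, 0 higher, beside 15.1% and 4.53% of all measured genes called lower. By TMM scaling 10 were called in each class, with all 5 of the NK-like genes among them. With cells of at most 5% mitochondrial UMIs and at least 500 genes, a limit that acts on these genes themselves, 1 and 0 were called. The monocyte-like level relative to B-like cells was then 0.751, 0.724 and 0.774, against 0.491, 0.491 and 0.552 with all barcodes.

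**Figure D4:**
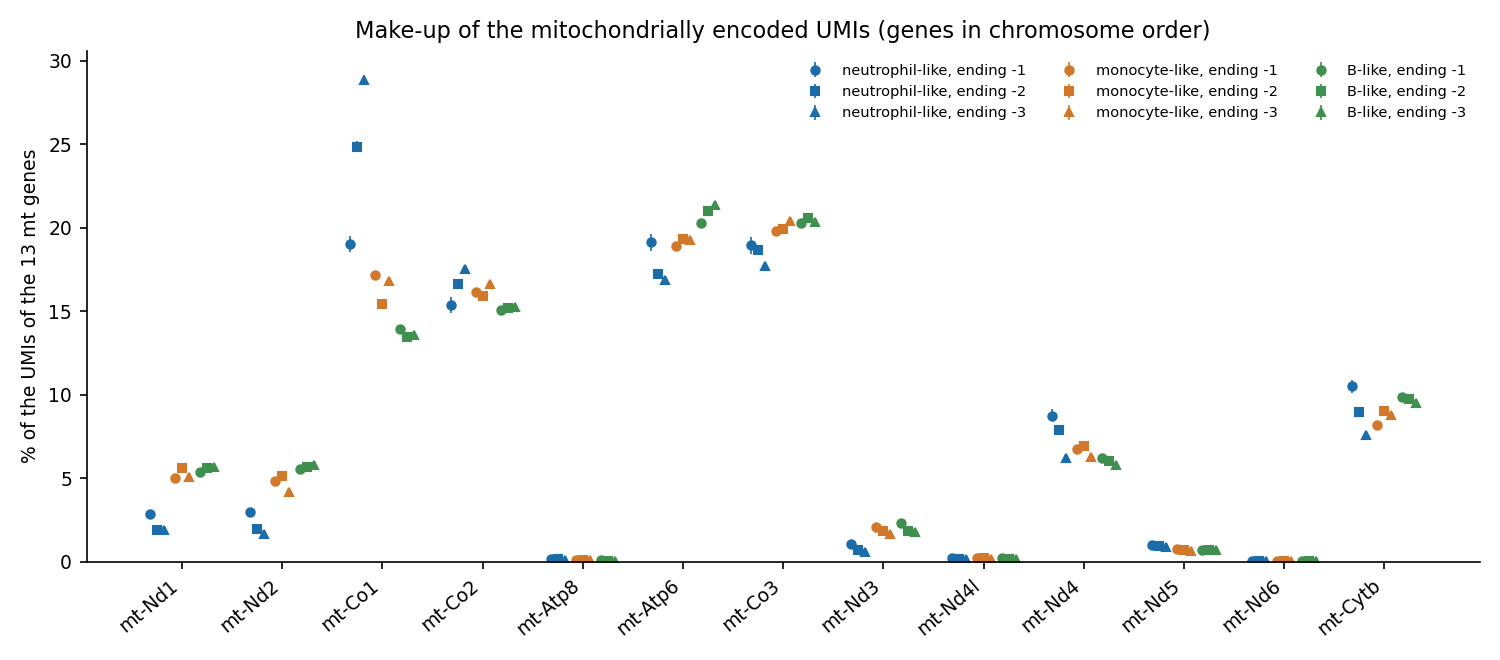
Share of each of the 13 mitochondrially encoded genes in their summed UMIs, in chromosome order, for neutrophil-, monocyte- and B-like cells; each point is 1 barcode ending and bars are exact 95% intervals. In neutrophil-like cells mt-Co1 makes up 19.0% to 28.9% (B-like 13.4% to 13.9%) and mt-Nd2 1.66% to 2.94% (B-like 5.57% to 5.79%).

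Among single cells the median mitochondrial share was 7.27%, 6.56% and 6.21% in B-like, 6.41%, 5.88% and 5.68% in T-like, 4.49%, 3.99% and 3.92% in NK-like, 3.44%, 3.27% and 3.42% in monocyte-like and 1.20%, 0.51% and 0.80% in neutrophil-like cells. The T-like cells thus had a lower median than B-like cells but a longer upper tail, with an upper quartile of 11.6%, 10.1% and 8.35% against 8.67%, 7.75% and 7.34%. After each cell was thinned to 1000 UMIs, with 45, 33 and 47 shallower T-like cells left out, 25.5%, 21.5% and 21.1% of T-like cells were still over 10%. One T-like cluster (cluster 9) stood apart, with 364, 135 and 194 cells. It had Cd4, Cd5, Cd28, Themis and Bcl11b among its leading genes, a median of 1504, 1276 and 1208 UMIs and a median mitochondrial share of 26.8%, 31.1% and 29.8%. Its nuclear genes stood at 7865, 8307 and 5319 CPM, and it held 28.7, 30.4 and 53.0 mitochondrially encoded UMIs per nuclear one, against 3.61 to 4.62 in T-like clusters 5 and 6. Without it, the mitochondrially encoded level of T- against B-like cells had a median of 0.861 over the 3 endings, against 1.021 with it, and 0 rather than 2 mitochondrially encoded genes were led by T-like cells.

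In T- and B-like cells with a high mitochondrial share the nuclear genes were low even when counted per 1000000 UMIs outside the mitochondrial genes. In T-like cells with 5% to 10% mitochondrial UMIs they stood at 15353, 16507 and 16779, with 10% to 20% at 11813, 11416 and 12624, and over 20% at 7320, 6622 and 6593. In B-like cells the first 2 of these ranges gave 14696, 14711 and 14659, then 13046, 12684 and 12651. Cells over 20% were fewer there, 95 in ending 1 and 27 in ending 3, with 11277 and 10274. Monocyte-like cells did not show this up to 10%: they had 17157, 18857 and 20617 under 2.5%, and 18275, 22146 and 24288 at 5% to 10%. Most T-like cells over 20% were of cluster 9, 275 of 310, 110 of 123 and 169 of 197. The 35, 13 and 28 others had 9765, 9846 and 8666, still below the cells of 5% to 10%. The median depth moved with the share, from 6193 to 6245 UMIs in T-like cells of 5% to 10% to 1211 to 1451 UMIs over 20%, and its part in the result was not tested.

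**Figure D5:**
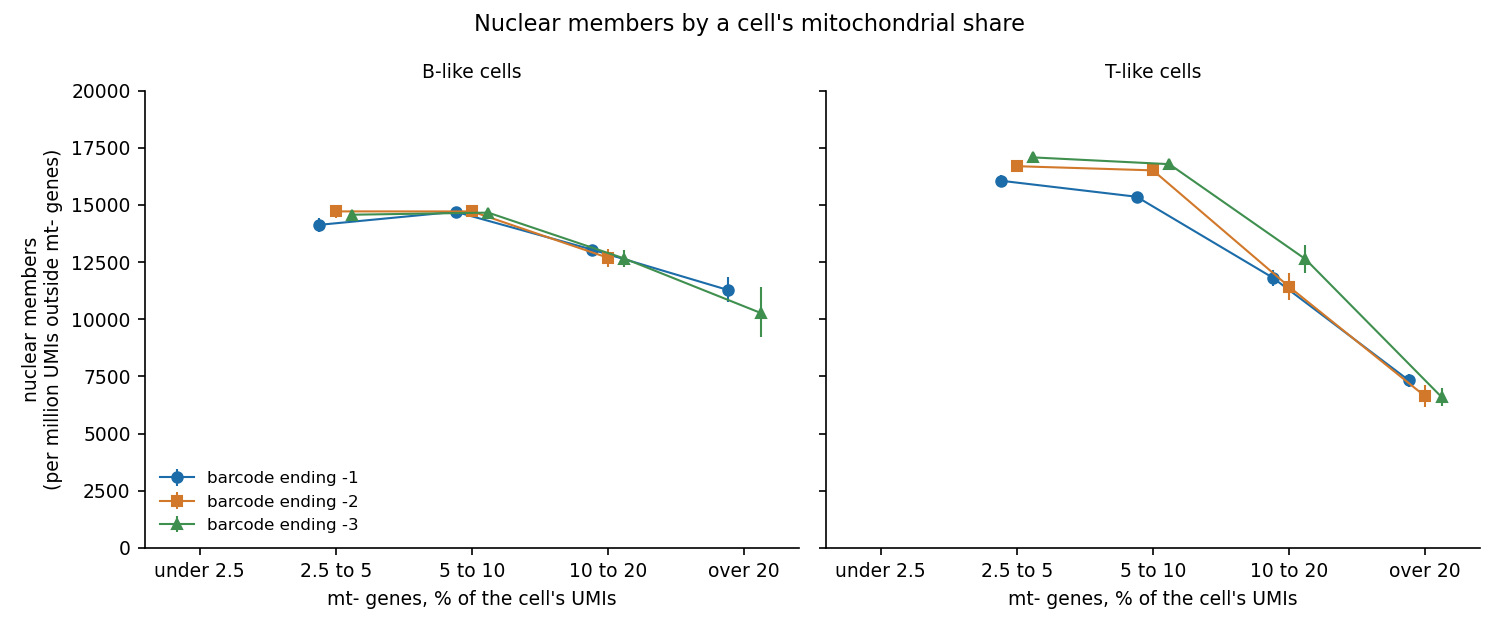
Nuclear gene UMIs per 1000000 UMIs outside the mitochondrial genes, in cells grouped by their mitochondrial share, for B-like (left) and T-like (right) cells; each line is 1 barcode ending, bars are exact 95% Poisson intervals and groups under 20 cells are not drawn. In T-like cells the value is 15353 to 16779 at 5% to 10% and 6593 to 7320 over 20%.

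Subsets of 1 class differed as well. Among monocyte-like cells, cluster 7, whose leading genes include Ccr2, Fn1 and Vcan, held 18820, 20912 and 23902 nuclear CPM, and cluster 12, led by Ace, Treml4 and Adgre4, held 14981, 16424 and 17479 CPM. Cluster 7 was the higher in each ending and was also deeper, with medians of 10098 to 14434 against 5804 to 6701 UMIs. Its mitochondrially encoded UMIs per nuclear one were 2.10, 1.64 and 1.59 against 2.38, 1.66 and 1.85. Among neutrophil-like cells, cluster 3, with Il1b, Csf1 and Clec4n among its leading genes, held 7401 CPM in ending 2 and 7437 CPM in ending 3. Cluster 1, with Ly6g, Mmp8 and Prok2, held 5714 and 6906 CPM. Cluster 10 held 6882 and 6580 CPM there, and cluster 18 held 3705 and 7375 CPM. Cluster 1 was deeper than cluster 3, with medians of 3968 and 5582.5 against 2838 and 2976 UMIs. The part of depth was not tested, and no TMM scaling was made by cluster.

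Few nuclear genes were spread over the endings in lymphoid cells and most were in neutrophil-like cells. The rule for spread picks the 2 endings by their values. On simulated counts with no change it called 3.27% of genes in B-like cells, and other classes were not simulated for it. A gene was counted as spread where its highest ending was at least 1.5 times its lowest with an interval excluding 1. This held for 1 of 81 nuclear genes in B-like cells (background 11.5%), 1 of 81 in T-like cells (14.0%), 4 of 77 in NK-like cells (12.8%), 16 of 81 in monocyte-like cells (26.5%) and 56 of 76 in neutrophil-like cells (60.3%). Of those 56, 48 were highest in ending 1, where the cells lay in cluster 10. Of all 5577 measured genes spread in these cells, 4462 were highest in ending 1 too. By TMM scaling 46 nuclear genes were spread (background 49.5%) and 39 of them were highest in ending 3. Of all 4577 genes spread by that scaling, 1859 were highest in ending 3. No order of the endings is therefore given. Without cluster 10, 13 nuclear genes were spread in neutrophil-like cells. This count has no share over all measured genes beside it and is not read as a result. Cox5a, a complex IV subunit, had 395, 147 and 137 CPM in neutrophil-like cells, a spread of 2.88 times (interval 2.62 to 3.17). Ndufa5 had a spread of 5.22 times (2.61 to 11.5) at levels of 0.864 to 4.51 CPM. In monocyte-like cells Atp5g1 stood at 169, 278 and 274 CPM and Ndufv3, an accessory subunit of the NADH-binding module, at 100.3, 137 and 168 CPM. In NK-like cells the 4 were Atp5g1, Ndufv2, Uqcrc2 and Ndufs5, all highest in ending 3, with ratios of 1.51 to 1.69. All 13 mitochondrially encoded genes were spread in neutrophil-like cells and lowest in ending 2, also by TMM scaling. In B-like cells 2 of the 13 were spread, mt-Atp8 and mt-Nd3, the latter at 1820, 1238 and 1158 CPM. In T-like cells mt-Atp8 was spread, in NK-like cells mt-Nd4l and in monocyte-like cells mt-Nd6, the last on 56, 53 and 57 UMIs. As said above, the values of mt-Atp8 and mt-Nd4l are not levels of separate RNAs.

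Isoforms made for other tissues were scarce. Cox4i2, Cox8b, Cox7b2 and Ndufa4l2 had 0 UMIs in all barcodes, as did the second of 2 identifiers listed for Atp5o, and Cox8c, a testis form, had 3. Cox7a1, a heart and muscle form, had 41 UMIs in 40 barcodes, against 23938 UMIs for Cox7a2. Cox6a2, another heart and muscle form, had 58 UMIs in 21 barcodes, of which 33 UMIs lay in 7 monocyte-like cells and 15 in 4 NK-like cells; 23 were in 1 barcode, so its levels rest on single cells. The common form Cox6a1 had 19163 UMIs. Cox6b2, known from testis, was an exception with 874 UMIs in 772 barcodes: it had 22.0, 17.2 and 16.9 CPM in monocyte-like cells, 8.80, 4.52 and 5.32 CPM for B-like ones, and reached 18.8, 5.27 and 3.51 CPM in neutrophil-like cells. It was highest in ending 1 in all 5 classes. Atpif1, the inhibitor that stops the ATP synthase from running backwards, is outside the rule and stood at 334, 135 and 144 CPM in neutrophil-like, 191, 232 and 244 CPM in monocyte-like cells and 191, 146 and 158 CPM in B-like cells.

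Other mitochondrial genes were compared between neutrophil- and B-like cells by the same rule, beside the background of 35.1% called lower and 12.3% higher, or 25.4% and 20.4% by TMM scaling. Of the mitochondrial ribosomal proteins, which translate the 13 genes, 69 of 77 were called lower and 1 higher (54 and 2 by TMM scaling), with a median log2 ratio of -2.09, -3.30 and -2.79. The exception was Mrpl33, at 981, 1230 and 870 CPM against 73.9, 86.3 and 77.5 CPM, while Mrps2 had a UMI only in ending 3 of the neutrophil-like cells. Of 25 genes for mitochondrial DNA upkeep, transcription and biogenesis 18 were called lower and 0 higher (12 and 1 by TMM scaling). Ppargc1a, a coactivator of mitochondrial biogenesis, had 0 UMIs in neutrophil-like cells and 3.55, 3.02 and 3.09 CPM in B-like cells. Of 18 citric acid cycle genes 12 were called lower and 1 higher (9 and 2 by TMM scaling): Mpc1, a pyruvate carrier, stood at 431, 223 and 171 CPM against 105, 106 and 104 CPM, and Idh3a, a subunit of isocitrate dehydrogenase, at 0, 0.346 and 0.360 CPM against 23.1, 26.6 and 24.0 CPM.

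Of 10 complex II and cytochrome c genes 6 were called lower and 0 higher (5 and 0 by TMM scaling), from Sdhaf3 (1.30, 0.0864 and 0.2704 CPM against 9.32, 9.22 and 11.0 CPM) to Sdhd (49.98, 48.6 and 63.7 CPM against 42.4, 48.6 and 45.7 CPM, not called). Of 39 assembly factors outside the rule 23 were called lower and 1, Pet100 of complex IV, higher, at 203, 178 and 172 CPM against 86.7, 71.1 and 65.1 CPM; by TMM scaling the counts were 18 and 4. The lowest by ratio, Lyrm7, had at most 2.18 CPM in any of these cells and was not called. Of 20 carriers and pores 10 were called lower and 0 higher (9 and 2 by TMM scaling). Hspe1, a chaperonin of the matrix, stood at 17.5, 3.46 and 3.70 CPM against 266, 247 and 259 CPM, and Ucp2, a carrier known from immune cells, at 402, 571 and 478 CPM against 342, 358 and 367 CPM.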

How the data were processed

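UMIs were counted per gene and barcode by the authors and deposited as raw counts in 1 table for 3 libraries; the table was made with Cell Ranger 6.0.2, per the file headers, while the submitters' processing notes name Cell Ranger 4.0.0, Trimmomatic 0.39, Seurat 3.0 and the GRCm38 build. The step that picked cell barcodes was not given in the sources used here. Barcodes with at least 200 genes were kept and doublets removed at a Scrublet score over 0.25, a limit set after the automatic one marked 0.07% of ending 1. The oxidative phosphorylation genes, other mitochondrial genes, haemoglobin, receptor segments and sex-linked genes were left out, then 2000 variable genes, 30 components and Leiden clustering (scanpy 1.11.5, leidenalg 0.10.2) gave clusters. These were named from marker lists by a scoring rule set after the data were seen. Of the cells in the 5 classes, 99.7% kept their class when clustered with all members, and 89.5% had the same class by the marker gate. Clustering with the members raised the B-like cells from 4550, 1530 and 2097 to 5105, 1578 and 2199. Counts were summed per class and ending, and genes with at least 20 UMIs were compared. With 1 library a group there is no replicate and no test; exact Poisson, Clopper-Pearson and conditional ratio intervals (95%, scipy 1.17.1) cover counting error only, and depth limits rare classes most. TMM factors came from edgeR 4.0.16. Genes named were all 13 mitochondrially encoded ones, the 3 with most UMIs per complex, the 6 furthest from 1 per comparison, the 3 most spread per class, and the isoform sets. A few others were named beside small counts or promoter motifs after their values were seen. The members and lists were chosen with earlier results of these data known. On simulated data of 13415 genes with counting error only, neutrophil- against B-like calls recovered 98% of 50 genes changed 2-fold and 88% of 50 changed 0.5-fold. The changed genes were drawn from those counted far above the minimum of 20 UMIs, so recovery at low counts was not tested.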

Additional observations from a re-analysis of the deposited data

How the results depend on the processing

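No paired analysis was possible because the 3 libraries carry no replicate numbers and no group has more than 1. The alternatives that leave out or rename single clusters were chosen after seeing the data. In each group below the cause was not tested unless stated. With at most 10% mitochondrial UMIs, the mitochondrially encoded level of T- against B-like cells was 0.862 (median of the endings), 1 nuclear gene was called higher and 0 lower in T-like cells, B-like cells led for 10 and T-like cells for 0 mitochondrially encoded genes, and 0 of these were spread in T-like cells. With at most 5% and at least 500 genes, that level was 0.997; genes called lower were 0 nuclear and 1 mitochondrially encoded in monocyte-like, 0 nuclear in T-like and 0 mitochondrially encoded in NK-like cells; B-like cells led for 1 and T-like for 0; and spread genes numbered 0 mitochondrially encoded in monocyte-like, 3 nuclear and 1 mitochondrially encoded in B-like, and 5 and 2 in T-like cells. With doublets kept, 3 mitochondrially encoded genes were called lower in NK-like cells and 2 nuclear genes were spread in T-like cells. By TMM scaling, the nuclear level of neutrophil- against B-like cells was 0.989 and the mitochondrially encoded level of T- against B-like cells 1.14; nuclear genes called against B-like cells were 6 higher and 25 lower in neutrophil-like, 3 higher and 0 lower in T-like, and 1 higher and 1 lower in NK-like cells, with 10 mitochondrially encoded genes lower in the last; neutrophil-like cells led for 5 nuclear genes, monocyte-like for 13, T-like for 4 and NK-like for 0, B-like for 1 and T-like for 9 mitochondrially encoded genes, and 2 nuclear genes were spread in T-like cells. With a total that leaves out mitochondrial, haemoglobin, S100a8 and S100a9 UMIs, 1 nuclear gene was called higher in neutrophil- than in B-like cells. With classes gated by markers, 1 nuclear gene was called lower in monocyte-like cells, the mitochondrially encoded level of T- against B-like cells was 0.902, B-like cells led for 7, T-like for 0 and NK-like for 5 genes, 6 nuclear genes were spread in monocyte-like and 2 mitochondrially encoded ones in NK-like cells. With the mean of cells' shares, T- against B-like cells stood at 0.988 for the nuclear level, 1.55 for the mitochondrially encoded level and 1.56 for their ratio. At a minimum of 100 UMIs, 0 nuclear genes were spread in T-like cells, with fewer genes tested. Without cluster 9, the mitochondrially encoded level of T- against B-like cells was 0.861, 1 nuclear gene was called higher in T-like cells, B-like cells led for 10 and T-like for 0, and spread genes in T-like cells were 2 nuclear and 0 mitochondrially encoded. Without cluster 0, 3 mitochondrially encoded genes were called lower in NK-like cells. Without cluster 10, which leaves 16 neutrophil-like cells in ending 1, nuclear genes called lower in them were 19 against B- and 33 against monocyte-like cells. There, 13 nuclear genes were spread. No share over all measured genes is given for these counts, and the few cells limit the calls for any gene. Clustering with the members, counting cluster 8 as B-like and a minimum of 1 UMI changed no call or level past these limits.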
